A study of Mus musculus with 8 samples.

Results

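The G1 cyclins, their kinases and their inhibitors were followed in nuclei of cultured mouse pancreatic islets. The set was given as a list of 8 genes, of which 7 had values among the 17362 genes of the table: the D-type cyclins Ccnd1, Ccnd2 and Ccnd3, the kinases Cdk4 and Cdk6, and the inhibitors Cdkn1a (p21) and Cdkn1b (p27). Cdkn1c was not analysed here. Islets came from wild type (WT) mice or from C57BL/6J mice with the Med14 S983A knock-in (mutant), in which a serine of Med14, the scaffold subunit of Mediator, is replaced by alanine in the animal as a whole and not in one islet cell type. After overnight culture, islets of either genotype received no drug (CON), Exendin-4 (Ex-4) at 10 nM, or forskolin (FSK), each drug for 16 h. Ex-4 acts through the GLP-1 receptor, which couples to adenylyl cyclase, and FSK switches adenylyl cyclase on without a receptor, so both raise cAMP. The dose of FSK in islets and the age, sex and number of mice are not given in the labels. The comparison addressed whether raised cAMP altered the growth programme of beta cells, with alpha and delta cells of the same islets beside them.

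D-type cyclins are made in response to growth signals and bind Cdk4 or Cdk6, and the resulting kinases phosphorylate the retinoblastoma protein and release E2F, which opens S phase. The Cip/Kip inhibitors p21 and p27 restrain cyclin-CDK complexes, and p21 is a classical target of p53. Adult rodent beta cells divide rarely, and mouse genetics has shown that they depend on Cdk4 and on Ccnd2 for postnatal growth, with p27 acting as a brake.

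Each condition had 1 pooled value in each cell type, so there was no spread between replicates and no test between conditions was possible. The unit is counts per 10000 counts of the column (CP10K). Intervals are 95% intervals (exact Poisson for a level, exact conditional for a ratio of levels, Clopper-Pearson for a share), and they cover counting error only. Whether the islets of a condition came from 1 or more preparations is not given. Condition cannot be told apart from islet preparation or barcoding well. Column totals ran from 1915006 to 3094377 counts in beta cells, from 269394 to 810127 in alpha cells and from 362410 to 631433 in delta cells. The RNA of Med14 itself was 0.478 CP10K in WT CON beta cells and 0.384 in mutant CON, and since a substitution need not alter the level of RNA, this does not check the labels. Summed over 11 beta cell markers, including the insulin genes, the level was 54.1 to 75.5 CP10K in beta columns, 13.0 to 34.8 in alpha columns and 6.22 to 15.01 in delta columns. Summed over 7 alpha cell markers, including Gcg, it was 39.6 to 125.9 CP10K in alpha columns and at most 4.45 in the other columns. Summed over 4 delta cell markers it was 4.36 to 9.73 CP10K in delta columns and at most 0.407 in the other columns. Each list was thus highest in the columns of its own label, but in 5 of 6 delta columns the beta markers summed to more than the delta markers. Fewer cells of a subtype and less RNA per cell cannot be told apart in these pools.

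The promoters of Cdk4 and Cdkn1b are shown because their transcripts were lower and higher together across the WT beta cell pools although they code for a kinase and for its inhibitor. In WT alpha cells after Ex-4 and WT delta cells after FSK their ratios lay on opposite sides of 1, with intervals that contained 1. Short genes as a class moved the same way in beta cells, as given below. Both sequences are the 250 bases before the RefSeq start on the plus strand of GRCm38.p6, at chr10:127063285-127063534 for Cdk4 and chr6:134920151-134920400 for Cdkn1b. Capitals mark the E-box CACGTG, the cAMP response element (CRE) TGACGTCA, its half-site TGACG and the E2F motifs TTTGGCGC, TTTCGCGC and TTTCCCGC, on either strand, a half-site lying within any full CRE.
Cdk4: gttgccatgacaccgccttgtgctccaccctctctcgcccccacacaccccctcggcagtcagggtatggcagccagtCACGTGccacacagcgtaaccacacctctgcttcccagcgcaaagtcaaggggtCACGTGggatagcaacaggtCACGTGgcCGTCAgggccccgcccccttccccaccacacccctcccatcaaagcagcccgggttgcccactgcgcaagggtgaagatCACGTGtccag
Cdkn1b: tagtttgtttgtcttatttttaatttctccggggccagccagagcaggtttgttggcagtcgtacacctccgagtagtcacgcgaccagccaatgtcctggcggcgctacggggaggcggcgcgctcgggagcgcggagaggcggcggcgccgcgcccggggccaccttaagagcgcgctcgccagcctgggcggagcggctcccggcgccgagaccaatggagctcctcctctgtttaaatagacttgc
The Cdk4 promoter held 4 E-boxes and 1 CRE half-site, and the Cdkn1b promoter held no capital motif. An E-box was found in 6.02% and a CRE half-site in 17.8% of 32851 RefSeq promoter windows of this length. At least 4 E-boxes, a cut equal to the Cdk4 number, were found in 7 of them. A GC-box (GGGCGG, either strand, left in lower case) occurred 1 time in each of both sequences and in 32.7% of all windows. A full CRE was found in 1.55% and an E2F motif in 1.53% of all windows, and neither in these 2 sequences. These are matches of letters, and binding was not measured here. Promoters were matched for 5 of the 7 genes, all but Ccnd1 and Ccnd2.

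In beta cells of both genotypes the FSK pools held less Ccnd2 and Cdk4 RNA and more Ccnd1 RNA than the CON pools. After Ex-4, WT beta cells held more Cdk4 and less Ccnd2 and Ccnd3, and in mutant beta cells the ratios to CON of all 7 genes had intervals that contained 1. Each value and its counting interval follow, with gene length beside them.

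Levels of different genes were compared per kilobase of exon, as means over the 6 conditions. In beta cells Cdk4 (0.128 CP10K per kb) and Ccnd2 (0.123) were the most abundant, followed by Ccnd1 (0.0576), Ccnd3 (0.0444), Cdkn1b (0.0440) and Cdkn1a (0.0105), with Cdk6 last at 0.00208. The ranges over conditions overlapped between each pair of neighbours in this order except Cdkn1a and Cdk6. Cdk6 rested on 5 to 11 counts per beta column. Nuclear RNA is in part unspliced, and per kilobase of the whole gene the order changed. Ccnd3 (94.9 kb) then came after Cdkn1a, at 0.00432 against 0.00651 CP10K per kb, and Cdkn1b (0.0392) came before Ccnd1 (0.0276). Cdk4 stood above Cdk6 on both length scales.

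Ccnd2, on the minus strand of chromosome 6 (127102125 to 127129156, GRCm39), was the D-type cyclin with the highest level per kilobase in beta cells. It was measured at 1.82 CP10K (1.67 to 1.98; 549 counts) in WT CON, 0.934 (0.829 to 1.05) after FSK and 1.31 (1.18 to 1.45) after Ex-4. In mutant beta cells it was 1.12 (0.977 to 1.28) in CON, 0.677 (0.575 to 0.792) in FSK and 1.05 (0.914 to 1.21) in Ex-4. WT CON stood above all other beta pools and mutant FSK at the bottom, with intervals apart from the other beta pools in both cases. The FSK to CON ratio was 0.512 (0.443 to 0.592) in WT and 0.604 (0.488 to 0.745) in the mutant. The Ex-4 to CON ratio was 0.720 (0.631 to 0.821) in WT. In the mutant it was 0.940 (0.772 to 1.14), an interval that contains 1. Without treatment, mutant beta cells held 0.616 times (0.523 to 0.722) the WT level.

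Ccnd1, on the minus strand of chromosome 7 (144483668 to 144493662), went the other way. In WT beta cells it was 0.173 CP10K (0.129 to 0.226) in CON, 0.281 (0.225 to 0.347) in FSK and 0.231 (0.180 to 0.293) in Ex-4. In mutant beta cells it was 0.270 (0.202 to 0.354), 0.447 (0.365 to 0.542) and 0.251 (0.185 to 0.332). Mutant FSK was the highest pool, with an interval above those of the other 5, and WT CON the lowest. The FSK to CON ratio was 1.63 (1.14 to 2.34) in WT and 1.66 (1.18 to 2.36) in the mutant, and mutant FSK held 1.59 times (1.18 to 2.14) the WT FSK level. The Ex-4 to CON ratio, 1.34 (0.922 to 1.96) in WT and 0.928 (0.614 to 1.401) in the mutant, did not exclude 1. LTO1, on the opposite strand, overlaps Ccnd1, and no source used here says if counting was by strand. LTO1 was 0.136 CP10K in WT CON and 0.0873 in WT FSK, and 0.151 and 0.143 in the mutant. Its part in the Ccnd1 values was not tested.

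**Figure D1:**
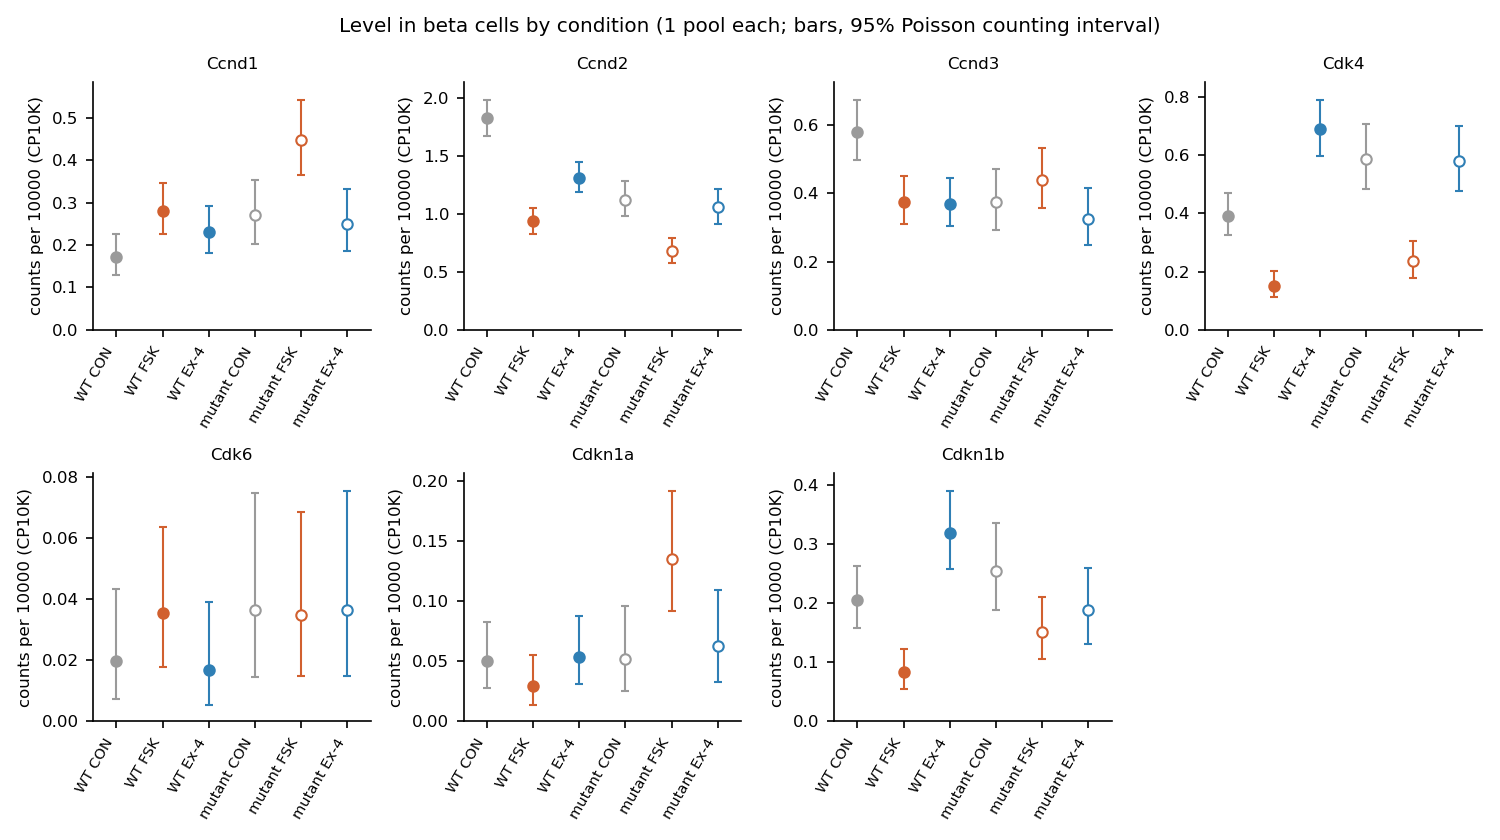
Level of each of the 7 genes (CP10K, linear axis from 0) in beta cells under the 6 conditions, with filled points for WT, open points for mutant and bars for 95% Poisson counting intervals. Ccnd2 and Cdk4 were lower in the FSK pools than in the CON pools of both genotypes, and Ccnd1 was higher, up to 0.447 in mutant FSK.

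Ccnd3 (chromosome 17, plus strand, 47815767 to 47910624) was 0.581 CP10K (0.498 to 0.674) in WT CON beta cells, 0.375 (0.310 to 0.450) in FSK and 0.369 (0.303 to 0.445) in Ex-4. In mutant beta cells it was 0.374 (0.293 to 0.471), 0.438 (0.357 to 0.533) and 0.324 (0.248 to 0.415). WT CON was the highest, with an interval that overlapped that of mutant FSK alone, and the intervals of the 3 mutant pools overlapped each other. The WT ratios to CON were 0.645 (0.506 to 0.821) for FSK and 0.635 (0.496 to 0.811) for Ex-4. In the mutant they were 1.17 (0.858 to 1.61) and 0.866 (0.606 to 1.23). 

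The 3 D-type cyclins summed to 2.58 CP10K in WT CON beta cells, 1.59 in WT FSK, 1.91 in WT Ex-4, and 1.77, 1.56 and 1.63 in mutant CON, FSK and Ex-4. Their makeup is a share within a column and does not depend on how columns were scaled. Ccnd1 made up 6.70% (5.04 to 8.70) of these counts in WT CON, 17.7% (14.4 to 21.3) after FSK and 12.1% (9.54 to 15.1) after Ex-4. In the mutant it made up 15.3% (11.6 to 19.6) in CON, 28.6% (24.0 to 33.6) in FSK and 15.4% (11.6 to 19.9) in Ex-4. The WT treatments and the mutant CON pool each had intervals above that of WT CON, while mutant CON and mutant Ex-4 were nearly equal. The share sets Ccnd1 (9.995 kb) against the longer Ccnd2 (27.0 kb) and Ccnd3 (94.9 kb). Beta cell genes under 10 kb had median ratios of 1.95 for Ex-4 in WT and 1.93 at baseline. Genes of 10 to 100 kb had 1.15 and 1.03. Genes over 100 kb, a bound that Ccnd3 nearly reaches, had 0.745 and 0.664, beside Ccnd3 ratios of 0.635 and 0.644. For FSK the short genes had 0.494 in WT and 0.484 in the mutant, and genes over 100 kb had 1.00 and 1.46. What part gene length had in the share was not tested. In alpha cells the share was 2.74% (0.751 to 6.87) in WT CON and 10.5% (4.90 to 18.9) in WT FSK, which overlap. It was 5.92% (2.74 to 10.9) in mutant CON and 18.2% (13.7 to 23.4) in mutant FSK, which do not. In delta cells the share ran from 4.20% (1.38 to 9.53) in WT CON to 14.5% (8.96 to 21.7) in WT Ex-4, and all 6 intervals overlapped each other.

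**Figure D2:**
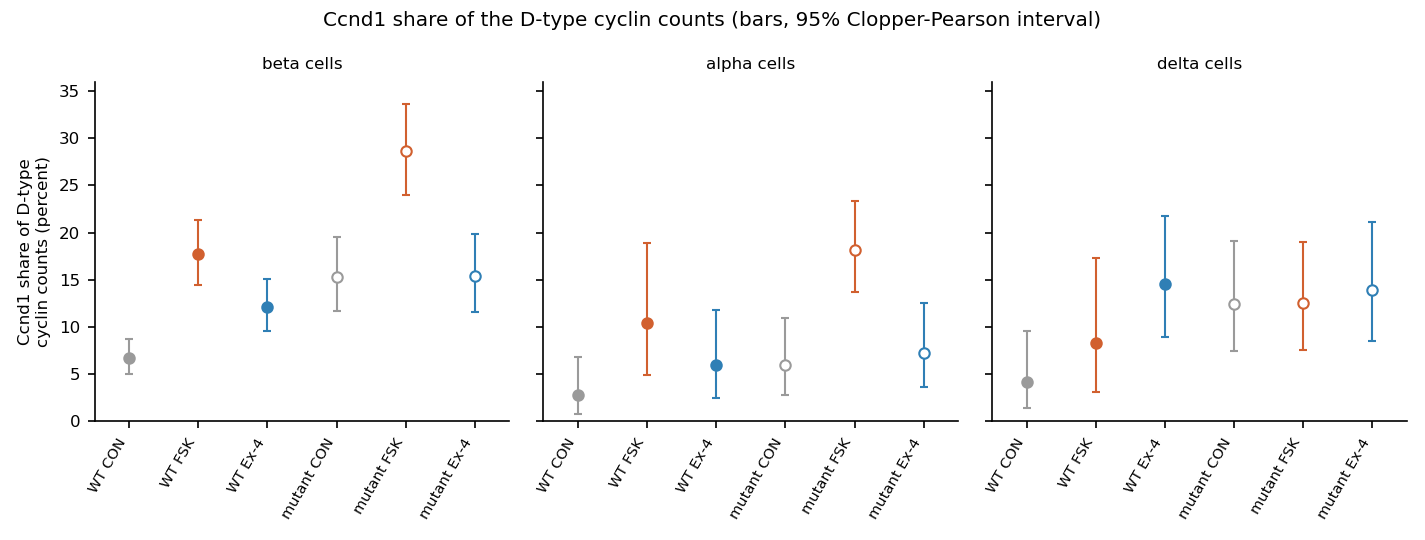
Ccnd1 as a percentage of the Ccnd1, Ccnd2 and Ccnd3 counts of each pool in beta, alpha and delta cells, with filled points for WT, open points for mutant and bars for 95% Clopper-Pearson intervals. The mutant FSK pool was the highest in beta cells at 28.6% and in alpha cells at 18.2%, and in delta cells all 6 intervals overlapped.

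Cdk4, the catalytic partner of the D-type cyclins (chromosome 10, plus strand, 126895180 to 126903789), showed the lowest FSK ratio in WT beta cells, close to that of Cdkn1b. It was 0.392 CP10K (0.324 to 0.469) for WT CON, 0.152 (0.112 to 0.202) after FSK and 0.688 (0.597 to 0.789) after Ex-4. Mutant values were 0.587 (0.484 to 0.706), 0.234 (0.176 to 0.306) and 0.580 (0.477 to 0.698). Both FSK pools lay below the other 4 with intervals apart, and WT Ex-4 lay with mutant CON and mutant Ex-4. FSK to CON ratios were 0.388 (0.270 to 0.548) in WT and 0.399 (0.283 to 0.557) in the mutant. Ex-4 to CON ratios were 1.76 (1.39 to 2.22) in WT and 0.988 (0.753 to 1.29) in the mutant, whose untreated level was 1.498 times (1.15 to 1.96) that of WT. FSK and Ex-4 thus went in opposite directions for Cdk4 in WT beta cells.

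Cdkn1b (chromosome 6, plus strand, 134897364 to 134902476) had the same order of WT pools. It was 0.206 CP10K (0.158 to 0.264) for WT CON, 0.0840 (0.0549 to 0.123) in FSK and 0.319 (0.258 to 0.390) in Ex-4, and 0.254 (0.188 to 0.336), 0.152 (0.106 to 0.211) and 0.188 (0.132 to 0.260) in the mutant. WT FSK was the lowest and WT Ex-4 the highest, and their intervals were apart. Ratios to CON were 0.408 (0.248 to 0.655) for FSK and 1.55 (1.11 to 2.17) for Ex-4 in WT, and 0.597 (0.376 to 0.940) and 0.739 (0.467 to 1.16) in the mutant. The share of Cdk4 in the Cdk4 and Cdkn1b counts of the 6 beta pools ran from 60.7% (49.7 to 70.9) in mutant FSK to 75.5% (67.7 to 82.2) in mutant Ex-4, and was not tested between pools. Whether Ex-4 ratios differed between WT and mutant was not tested, and mutant CON itself lay apart from WT CON for Ccnd2, Ccnd3 and Cdk4.

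Gene length moved with these results. Cdk4 spans 8.61 kb and Cdkn1b 5.11 kb, and among the 1179 kept beta cell genes under 10 kb the median ratio was 0.494 for FSK in WT, 0.484 for FSK in the mutant, 1.95 for Ex-4 in WT, 0.946 for Ex-4 in the mutant and 1.93 for mutant CON over WT CON. The Cdk4 and Cdkn1b ratios lay on the same side of 1 as these medians in all 5 comparisons. With a length trend removed from log2 ratios of CP10K with 0.1 added, the Cdk4 difference went from -0.96 to -0.60 for FSK in WT, from -1.04 to -0.52 for FSK in the mutant, from 0.68 to 0.19 for Ex-4 in WT and from 0.48 to 0.03 for mutant over WT at baseline. That of Cdkn1b changed sign for FSK in the mutant (-0.49 to 0.11), Ex-4 in WT (0.45 to -0.12) and mutant over WT at baseline (0.21 to -0.34). Ccnd1, which spans 9.995 kb, was on the opposite side of 1 from the short genes after FSK, and its difference grew with the trend removed, from 0.48 to 0.84 in WT and from 0.56 to 1.05 in the mutant, while for Ex-4 in WT it changed sign (0.28 to -0.17) and at baseline it went from 0.44 to 0.02. For Ccnd3, at 94.9 kb, the difference went from -0.52 to -0.45 for FSK in WT and from -0.54 to -0.37 for Ex-4 in WT. For FSK in the mutant it changed sign (0.18 to -0.06). What part gene length had in these levels was not tested further. Tspan31 and Marchf9, on the opposite strand, overlap Cdk4. Tspan31 was 0.0133 CP10K in WT CON beta cells, 0.00970 after FSK and 0.0839 after Ex-4, with 0.0727, 0.0260 and 0.0470 in mutant cells. Marchf9 was 0.0266, 0.00646 and 0.0704 in WT, with 0.0727, 0.0217 and 0 in mutant cells. Both were lower after FSK and, in WT, higher after Ex-4, as Cdk4 was, at lower levels, and their part in the Cdk4 values was not tested.

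**Figure D3:**
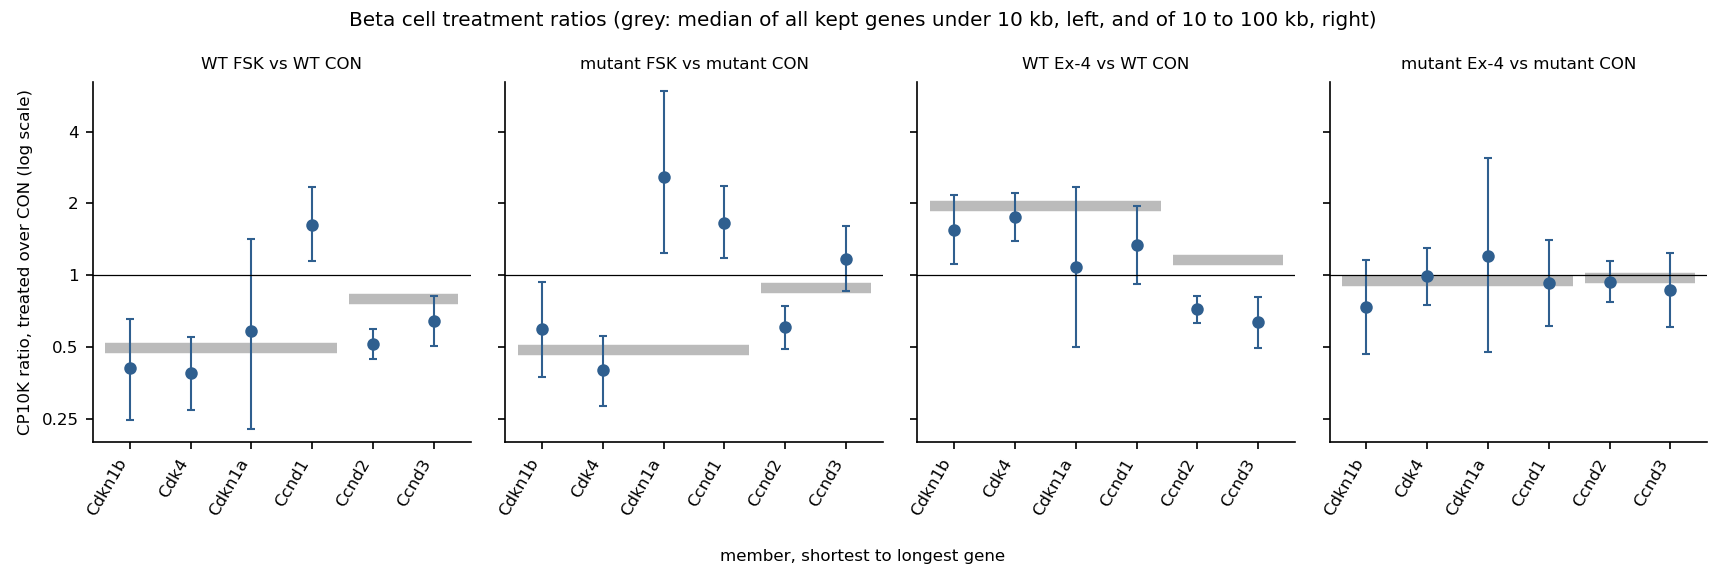
Treated over CON ratios of CP10K (log axis) in beta cells for 6 genes ordered from the shortest to the longest, with 95% counting intervals, beside grey bars at the median ratio of all kept genes under 10 kb (left) and of 10 to 100 kb (right). After FSK, Cdk4 and Cdkn1b lay near the median of short genes (0.494 in WT) and Ccnd1 above it at 1.63, and in mutant Ex-4 the points lay around 1.

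Cdkn1a, the p21 gene (chromosome 17, plus strand, 29309936 to 29319701), was low in beta cells. WT pools held 0.0498 CP10K (15 counts) in CON, 0.0291 (9) in FSK and 0.0537 (16) in Ex-4, and mutant pools held 0.0519 (10), 0.135 (31) and 0.0627 (12). Mutant FSK stood out, with an interval (0.0914 to 0.191) above those of the 3 WT pools and overlapping the other mutant pools. Its ratio to mutant CON was 2.59 (1.24 to 5.93), and its ratio to WT FSK was 4.63 (2.15 to 11.1). FSK against CON in WT gave 0.584 (0.225 to 1.42), so no FSK difference was detectable in WT at this depth. Antisense genes overlap Cdkn1a, among them Dino, and their reads may not be separable from it. Cdk6 was between 0.0168 and 0.0366 CP10K over the beta pools with all intervals overlapping.

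A fold of 1.5 on log2(CP10K + 1), or 0.58, was the threshold for counting a gene, which asks for a far larger ratio from genes at these levels, among genes whose mean reached the 40th percentile. This kept 6 of the 7 genes in beta cells (all but Cdk6) and 5 in alpha and in delta cells (Cdk6 and Cdkn1a not kept). In beta cells 0 of 6 passed it in any comparison, where 2.24% of the 10093 kept genes did for FSK in WT, 7.83% for FSK in the mutant, 3.12% for Ex-4 in WT, 0.0495% for Ex-4 in the mutant and 5.34% for mutant over WT CON. The shares were 0.139% and 0.0594% for mutant against WT after FSK and after Ex-4. A gene whose level on this scale is under 0.58 in the reference pool cannot pass by a fall, even to 0. In WT CON beta cells this held for Cdk4 (0.477), Cdkn1b (0.270), Ccnd1 (0.230) and Cdkn1a (0.0701). The shares of all kept genes were not matched for level. The same limit holds for genes at such levels in alpha and delta cells and in the lists below. By a rule chosen after seeing the data, a CP10K ratio of 1.5 with counting intervals apart, 4 of 6 were past it for FSK in WT, all lower (Ccnd2, Ccnd3, Cdk4 and Cdkn1b), where 25.5% of kept genes were past it and 19.4% were lower. For FSK in the mutant 3 of 6 were past it (Ccnd1 higher, Ccnd2 and Cdk4 lower; 39.7% of kept genes). For Ex-4 there were 2 of 6 in WT (Cdk4 higher, Ccnd3 lower; 29.6%) and 0 of 6 in the mutant (1.45%). Mutant CON against WT CON gave 2 of 6 (Ccnd2 and Ccnd3, lower; 34.3%). Mutant FSK against WT FSK gave 2 of 6 (Ccnd1 and Cdkn1a, higher; 6.18% of kept genes, 5.46% higher), and mutant Ex-4 against WT Ex-4 gave 0 of 6 (3.78%). With 6 genes, the counts for FSK in the mutant, Ex-4 in WT and the baseline stood near these backgrounds.

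Markers of other cell types moved with some of these results. The summed alpha cell markers in beta columns were 1.68 CP10K in WT CON, 3.71 after FSK and 1.18 after Ex-4, and 2.08, 4.45 and 2.48 in the mutant, so they were higher after FSK as Ccnd1 was. Ccnd1 in alpha cells themselves reached 0.334 CP10K in WT FSK and 0.611 in mutant FSK, against alpha marker sums of 125.9 and 103.1 there. Macrophage markers, 4 of 5 with values, summed to at most 0.0727 CP10K in beta columns, and stellate markers to at most 0.0260. Endothelial markers summed to at most 0.178 and ductal markers to at most 0.0623. Schwann cell and neuron markers, 4 of 5 with values and among them Snap25, which endocrine cells also express, summed to 8.999 CP10K in WT CON beta cells, 10.4 after FSK and 6.64 after Ex-4, with 5.62, 11.3 and 6.21 in mutant cells. This sum was higher after FSK, as Ccnd1 was. The part of other cell types in the beta cell values was not tested. Ribosomal RNA linked and mitochondrial genes, 14 in all, took 3.45% of beta counts in WT CON, 2.81% in WT FSK, 9.20% in WT Ex-4, 11.9% in mutant CON, 2.75% in mutant FSK and 14.8% in mutant Ex-4. With columns rescaled without them, the FSK ratios in the mutant were 1.4997 for Ccnd1, 0.547 for Ccnd2 and 0.362 for Cdk4. At baseline they were 0.675 for Ccnd2 and 0.706 for Ccnd3, and for Ex-4 in WT 0.675 for Ccnd3. The Ccnd1 count for FSK in the mutant, the Ccnd2 and Ccnd3 counts at baseline and the Ccnd3 count for Ex-4 in WT, by ratio with intervals apart, were thus lost under this scaling, each falling short of 1.5-fold. Other ratios lay past 1.5-fold under it, at baseline 1.71 for Ccnd1 and 1.64 for Cdk4. For Ex-4 in WT they were 1.87 for Cdk4 and 1.65 for Cdkn1b. Before rescaling, intervals were apart for both Cdk4 ratios and overlapped for the Ccnd1 and Cdkn1b ratios. Intervals were not drawn anew under this scaling.

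In alpha cells Ccnd2 was 2.504 CP10K (2.05 to 3.03) for WT CON, 2.34 (1.80 to 2.99) after FSK and 1.68 (1.33 to 2.11) after Ex-4. Mutant alpha cells held 1.20 (0.971 to 1.46), 2.11 (1.80 to 2.46) and 1.42 (1.17 to 1.71). Mutant CON was the lowest pool and had an interval apart from those of WT CON, WT FSK and mutant FSK. The FSK ratio was 0.934 (0.672 to 1.29) in WT and 1.76 (1.37 to 2.29) in the mutant, where beta cells had 0.604. Mutant CON held 0.478 times (0.359 to 0.636) the WT CON level, and Ccnd2 was the 1 of 5 genes past the log2 threshold in this comparison, where 7.38% of the 9487 kept genes were. No gene of the set was past it for FSK in either genotype (2.51% and 4.02% of kept genes) or for Ex-4 in either (5.72% and 0.0422%). The shares were 0.485% and 0.116% for mutant against WT after FSK and after Ex-4, with no gene of the set past it. By ratio with intervals apart, Ccnd1 and Ccnd2 were past it for FSK in the mutant (2 of 5, 13.4% of kept genes), Ccnd2 at baseline (1 of 5, 17.1%) and Ccnd3 for mutant against WT after Ex-4 (1 of 5, 1.89%). None was for FSK in WT (4.57%), Ex-4 in WT (12.2%), Ex-4 in the mutant (0.791%) or mutant against WT after FSK (2.25%). The alpha cell markers of the alpha columns summed to 94.5, 125.9 and 40.5 CP10K in WT CON, FSK and Ex-4, and to 41.5, 103.1 and 39.6 in the mutant. This sum was lowest in mutant CON and both Ex-4 pools, as Ccnd2 was. Whether the marker sum and Ccnd2 are linked was not tested.

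Ccnd1 in alpha cells was 0.0954 CP10K (4 counts) for WT CON, 0.334 (9) after FSK and 0.155 (7) after Ex-4, and 0.111 (9), 0.611 (48) and 0.139 (11) in the mutant. Mutant FSK was again the highest, with an interval (0.450 to 0.810) apart from all but WT FSK. Its ratio to mutant CON was 5.498 (2.67 to 12.7). The WT ratio, 3.50 (0.977 to 15.6), rested on few counts and did not exclude 1. Ccnd3 ranged from 0.365 to 0.882 CP10K in alpha cells, and its FSK ratio was 0.589 (0.294 to 1.12) in WT and 1.12 (0.736 to 1.71) in the mutant. Cdk4 in alpha cells ran from 0.334 to 0.555 CP10K. Its FSK ratio was 0.737 (0.294 to 1.71) in WT and 0.641 (0.385 to 1.05) in the mutant, neither separable from 1 at this depth, while short genes had medians of 0.778 and 0.843. Cdkn1b rested on 4 to 20 counts per alpha column.

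**Figure D4:**
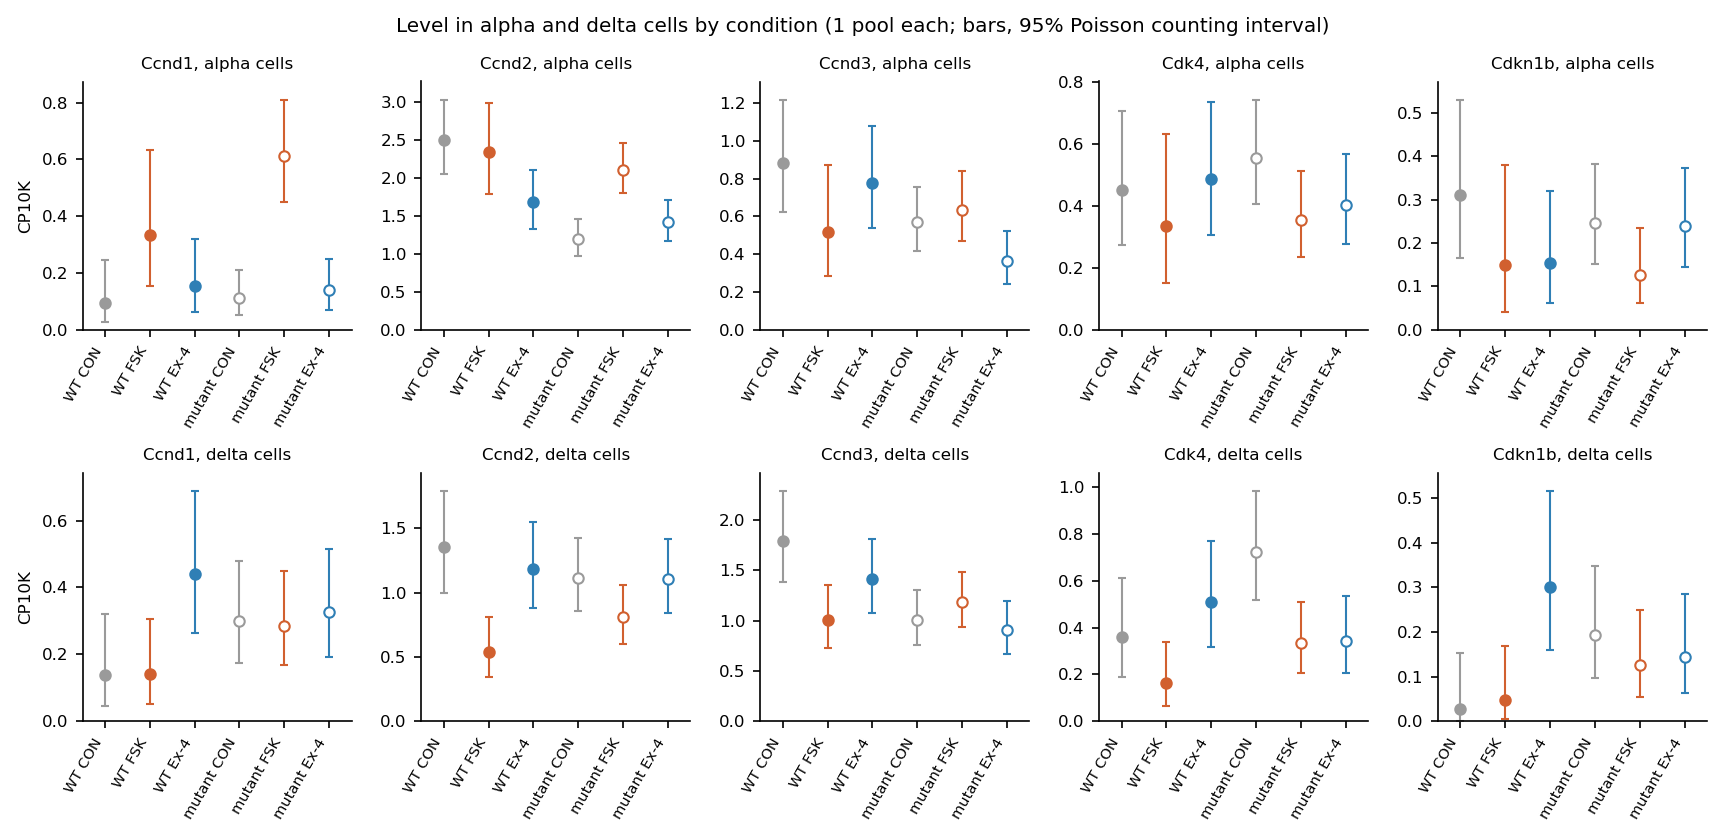
Levels (CP10K, linear axes from 0) of 5 genes in alpha cells (top row) and delta cells (bottom row) under the 6 conditions, with filled points for WT, open points for mutant and bars for 95% Poisson counting intervals. Ccnd1 was highest in mutant FSK in alpha cells at 0.611, Ccnd2 was lowest in mutant CON in alpha cells at 1.20, and Ccnd2 was lowest in WT FSK in delta cells at 0.538.

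Ccnd3 was higher in delta cells than in beta cells. It was 1.79 CP10K (1.38 to 2.29) for WT CON, 1.01 (0.728 to 1.35) after FSK and 1.41 (1.081 to 1.81) after Ex-4, and 1.01 (0.762 to 1.30), 1.19 (0.934 to 1.49) and 0.905 (0.672 to 1.19) in the mutant. WT CON was the highest, apart from WT FSK, mutant CON and mutant Ex-4. Per kilobase of exon the mean was 0.132 CP10K for Ccnd3 and 0.108 for Ccnd2 in delta cells, against 0.0444 and 0.123 in beta cells, where the ranges of the pair did not overlap. Per kilobase of the whole gene the delta cell order turned round, with 0.0128 CP10K for Ccnd3 and 0.0376 for Ccnd2. Ccnd2 in delta cells was 1.35 CP10K (1.00 to 1.79) for WT CON, 0.538 (0.341 to 0.807) after FSK and 1.18 (0.879 to 1.55) after Ex-4, and 1.11, 0.808 and 1.10 in the mutant. WT FSK was the low pool, with a ratio to CON of 0.398 (0.231 to 0.666). It was the 1 of 5 genes past the log2 threshold there, where 4.79% of the 9256 kept genes were, and 0 of 5 passed in the other comparisons with CON (7.91% for FSK in the mutant, 5.06% and 0.0432% for Ex-4 in WT and mutant) or at baseline (7.05%), nor for mutant against WT after FSK (0.411%) or Ex-4 (0.281%). By ratio with intervals apart, Ccnd2 and Ccnd3 were past it for FSK in WT (2 of 5, 8.99% of kept genes), Cdk4 for FSK in the mutant (1 of 5, 19.8%), Cdkn1b for Ex-4 in WT (1 of 5, 10.1%) and Ccnd3 at baseline (1 of 5, 15%). None was for Ex-4 in the mutant (0.81%) or for mutant against WT after FSK (3.33%) or Ex-4 (2.36%).

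Cdk4 in delta cells was 0.359 CP10K in WT CON, 0.164 after FSK and 0.509 after Ex-4, and 0.724, 0.333 and 0.344 in the mutant. Mutant CON was high, with an interval (0.520 to 0.982) apart from WT FSK and mutant FSK only. The FSK ratio was 0.456 (0.154 to 1.23) in WT and 0.459 (0.258 to 0.796) in the mutant, beside 0.587 and 0.598 for genes under 10 kb. The mutant Ex-4 ratio was 0.475 (0.260 to 0.837). Over the 3 cell types and both genotypes Cdk4 was lower after FSK in 6 of 6 pairs, with 3 of the intervals under 1. The median FSK ratio of genes under 10 kb was also under 1 in each of these pairs. It was 0.494 and 0.484 in WT and mutant beta cells, 0.778 and 0.843 in alpha and 0.587 and 0.598 in delta cells. The 3 cell types of a condition come from the same islets, so the pairs are not separate observations. Ccnd1 was higher after FSK in 5 of 6, with 3 intervals above 1, and Ccnd2 lower in 5 of 6, with 3 intervals under 1. The exceptions were Ccnd1 in mutant delta cells (0.9497, 0.462 to 1.96) and Ccnd2 in mutant alpha cells, with an interval above 1. After Ex-4, Ccnd3 was lower in 6 of 6 pairs, but 1 interval lay under 1. Cdkn1b in delta cells had 1 count in WT CON and 13 in WT Ex-4. Cdkn1a had 0 counts in WT Ex-4, with an exact Poisson upper bound of 0.0854 CP10K (0.0695 at the limit of 3 counts).

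The genes most like each member over the 18 columns (Pearson correlation of log2(CP10K + 1), 8561 genes kept in all 3 cell types) are given as a description, since the columns share preparations and depth. They were Meg3 (0.80), Mynn (0.79) and Pmvk (0.75) for Ccnd1, and Slco2a1 (0.90), Slc37a1 (0.90) and Gm30551 (0.89) for Ccnd2. For Ccnd3 they were Jam3 (0.95), Glis1 (0.94) and Asic2 (0.94), for Cdk4 Tns2 (0.91), Uvssa (0.91) and Vps39 (0.90), and for Cdkn1b 5830417I10Rik (0.84), Kxd1 (0.83) and Cyhr1 (0.81).

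Around the G1 genes, lists of their regulators and targets were counted in beta cells. Of 29 growth factor and nutrient signalling genes with values, 26 were kept, and for FSK in WT 3 of them were past the log2 threshold, all higher, and in the mutant 5, all higher. Of the 10093 kept genes 226 were past it in WT, 153 of them higher, and 790 in the mutant, 517 of them higher. Igf1r, the receptor of insulin-like growth factor 1, was 12.6 CP10K in WT CON and 48.4 after FSK, with 7.80 and 49.7 in mutant cells, while kept genes over 100 kb, a class that holds Igf1r, had median FSK ratios of 1.00 and 1.46. Irs2, which carries insulin and IGF receptor signals and is a known CREB target, was 0.621 CP10K in WT CON and 1.64 after FSK, with 0.732 and 1.89 in mutant cells. Egfr, the receptor of epidermal growth factor, was 2.06 CP10K in WT CON and 3.75 after FSK, with 0.789 and 3.16 in mutant cells. The list's median log2 difference was -0.07 for FSK in WT and 0.14 in the mutant, beside -0.055 and -0.025 over all kept genes. For Ex-4 in WT, 3 of the 26 were past the threshold and all were lower, beside 315 of all kept genes with 220 lower. Among the 3 was Foxo1 (3.57 CP10K in CON, 1.91 in Ex-4), a transcription factor restrained by insulin signalling. Foxo1 was higher after FSK, at 5.54 CP10K in WT. In mutant cells Foxo1 was 1.475 in CON and 4.06 after FSK, past the threshold.

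A list of 11 chromatin regulators held Men1 and Kmt2a, whose complex maintains expression of p27, Polycomb subunits such as Ezh2 and Ring1, which silence the Ink4a locus and so permit beta cell replication, and demethylases, so its members do not share 1 role. All 11 were kept and had lower values after FSK in each genotype, as did 7230 of the 10093 kept genes in WT and 5604 in the mutant. The threshold was passed by 1 in WT and 2 in the mutant, all lower, beside 2.24% and 7.83% of kept genes. Kmt2a, a histone H3 lysine methyltransferase, was 5.07 CP10K in WT CON, 2.87 after FSK and 8.29 after Ex-4, and 9.70 and 3.03 in mutant CON and FSK. Kdm6b, a histone demethylase, was 1.83 in mutant CON and 0.729 in mutant FSK. The list's median log2 difference was -0.12 for FSK in both genotypes and 0.12 for Ex-4 in WT, beside -0.055, -0.025 and 0.03 over all kept genes.

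Of 12 genes of E-type cyclins, Cdk2 and S phase entry, 5 were kept, and Fbxw7, part of the ubiquitin ligase that degrades cyclin E, was the 1 past the threshold (mutant CON 1.22 CP10K, mutant FSK 2.54, against 1.57 and 2.44 in WT). Of 16 RB, E2F and DREAM genes with values, 13 were kept and 0 passed for FSK in either genotype, where 2.24% and 7.83% of all kept genes did. Tfdp2, a dimerisation partner of E2F, was 0.7004 CP10K in WT CON and 1.06 after FSK, with 0.327 and 0.938 in mutant cells. Of 14 kept p53 pathway genes 0 passed for FSK, and Sesn2, a stress-induced p53 target, was 0.498 and 0.191 CP10K in WT CON and FSK. Only 2 of 19 S, G2 and M phase genes with values were kept in beta cells, the replication helicase genes Mcm6 and Mcm7, at 0.0863 and 0.0664 CP10K in WT CON and 0.113 and 0.0194 in WT FSK. Of 17 kept atypical cyclin and kinase genes 0 passed for FSK in WT, and in the mutant Cdk14 was higher and Ccnl2 lower past the threshold. These shares of kept genes for FSK stand beside each of the counts in this paragraph, and on lists this short a count of 0 or 1 is not a result about the list. For Ex-4 in the mutant 0 genes of these lists passed, where only 5 of all kept genes did.

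Across the table's 9 labelled cell types, with the 6 conditions summed, Ccnd2 was highest in alpha cells at 1.76 CP10K (1.62 to 1.90), next to muscle cells (1.63, 1.21 to 2.14), and beta cells held 1.18 (1.13 to 1.24). Ccnd1 lay between 0.249 and 0.279 in beta, alpha and delta cells, and Cdk4 between 0.414 and 0.439, with overlapping intervals. Ccnd3 ran among endocrine cells from 0.418 (0.386 to 0.451) in beta cells to 0.598 (0.520 to 0.684) in alpha, 1.18 (1.06 to 1.31) in delta and 2.17 (1.76 to 2.63) in PP cells.

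**Figure D5:**
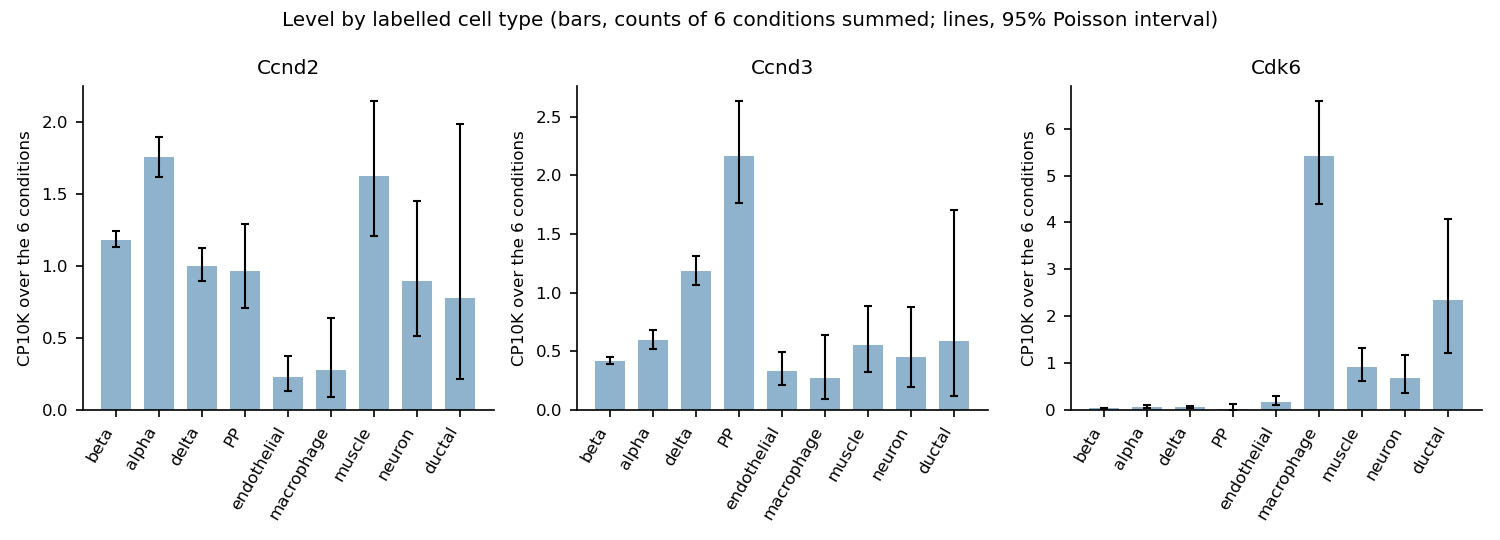
Levels (CP10K, linear axes from 0, counts of the 6 conditions summed) of Ccnd2, Ccnd3 and Cdk6 in the 9 labelled cell types, with lines for 95% Poisson counting intervals. Ccnd2 was highest in alpha cells at 1.76, Ccnd3 ran from 0.418 in beta to 2.17 in PP cells, and Cdk6 was near 0 in endocrine cells.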

How the data were processed

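Nuclei of mouse islets were barcoded combinatorially, and each of 8 sublibraries holds all 6 conditions, so a sublibrary is not a replicate. The authors aligned reads to mm39 with split-pipe and removed nuclei with extreme counts, extreme numbers of genes or a high mitochondrial share. They normalized with SCTransform, integrated with Harmony, and clustered in Seurat. They labelled clusters by cell type from their top markers with CellKb, and downsampled to an equal number of nuclei per sample. They deposited natural log values, ln(1 + 10000 × count / column total), for 17362 genes in 54 columns, 1 for each of the 9 cell types under the 6 conditions. Not given in the sources used here are the gene annotation, the use of strand and the kind of count (raw or corrected) that was pooled. Whether pooling came before or after downsampling is not given either. Column totals were recovered as the numbers that make every value a whole count (100% of values within 0.001). Differences were taken on the log2(CP10K + 1) scale, that is with a pseudocount of 1, or as CP10K ratios, among genes at or above the 40th percentile of the mean, and no test was run because each group was 1 pool. A count of 0 was given a limit of 3 counts.

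Named genes were the members, Med14, list genes with the largest FSK differences in WT beta cells (up to 4 per list) or past the threshold in the mutant in the WT direction, and the 3 genes most alike each member. Markers were named beside a result. The overlapping genes were named after their values were seen. Alternatives were a pseudocount of 0.1 CP10K, no filter, median centring, rescaling with mitochondrial and ribosomal RNA linked genes left out, and taking off a length trend (lowess, span 0.3). Members and lists were chosen with earlier results of these data known. Gene coordinates and lengths are GRCm39 (GENCODE M39, 16531 genes matched by name) and promoters RefSeq on GRCm38.p6. Intervals came from scipy 1.17.1 and the lowess fit from statsmodels 0.14.6, in Python 3.11.15 with pandas 2.3.3, and figures from matplotlib 3.10.9.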

Additional observations from a re-analysis of the deposited data

Results flagged for a closer look

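Ccnd2 stood on opposite sides of 1 in 2 cell types under the same contrast. Mutant FSK over mutant CON was 0.604 in beta cells and 1.76 in alpha cells, each with 1 pool per condition, and the difference between the cell types was not tested. In the same alpha pools the alpha cell markers summed to 41.5 CP10K in mutant CON and 103.1 in mutant FSK.

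Among the cell types outside the comparisons, the following levels over the 6 conditions had counting intervals wholly above those of beta, alpha and delta cells. Ccnd3 was 2.17 CP10K (1.76 to 2.63; 101 counts) in the columns labelled PP cells. Cdk6 was 5.41 CP10K (4.40 to 6.59; 99 counts) in macrophage columns, 2.33 (1.21 to 4.07; 12 counts) in ductal, 0.911 (0.605 to 1.32) in muscle and 0.670 (0.346 to 1.17) in neuron columns, against 0.0289 in beta cells. Cdkn1b was 0.558 CP10K (0.268 to 1.03; 10 counts) in neuron columns.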

How the results depend on the processing

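Over 80 member differences (5 comparisons in 3 cell types), the sign was kept in 80 with a pseudocount of 0.1 CP10K, 80 without the filter, 75 with the median set to 0, 77 after rescaling, 62 with the length trend removed and 58 with both the 0.1 pseudocount and the trend removed, a combination chosen after seeing the data. Counts of members past 1.5-fold, which were 0 except for 1 in mutant CON against WT CON in alpha cells and 1 in WT FSK in delta cells, moved with the pseudocount and with the call rule. With 0.1 CP10K they were 3 for FSK in WT and 3 in the mutant, 1 for Ex-4 in WT and 1 at baseline in beta cells, beside 18.9%, 38.7%, 23.5% and 31.3% of kept genes. In alpha cells they were 3, 3 and 1 for FSK in WT, FSK in the mutant and Ex-4 in WT, beside 29.5%, 25.5% and 36.7%. In delta cells they were 3 and 1 for FSK in WT and mutant (34.6% and 40%), 2 and 1 for Ex-4 in WT and mutant (37.6% and, for the mutant, 1069 of 9256 genes), and 4 at baseline (41.3%). By ratio with intervals apart, chosen after seeing the data, the beta counts were 4, 3, 2 and 2 for FSK in WT, FSK in the mutant, Ex-4 in WT and baseline. The shares of kept genes there were 25.5%, 39.7%, 29.6% and 34.3%. The alpha counts were 2 for FSK in the mutant and 1 at baseline, beside 13.4% and 17.1%. In the same order as for beta cells, the delta counts were 2, 1, 1 and 1, beside 8.99%, 19.8%, 10.1% and 15%. The delta count for FSK in WT was 0 with the median set to 0 and 0 with the length trend removed. The cause of these moves was not tested. Signs that changed with the median set to 0 included Cdkn1a in beta cells for FSK in WT (0.03) and Ex-4 in WT (-0.03). No paired analysis was possible because each condition had 1 pool per cell type. Depth limits Cdk6, Cdkn1a and all alpha and delta values, where 1 count equals up to 0.0371 CP10K.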
